A study of Apis mellifera with 2 samples.

Results

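The halved mRNAs of honey bee queen larvae are 124 predicted messenger RNAs that were counted well and whose level in larvae fed miR-184 was below 0.5 of the level in larvae fed water. They were chosen by this ratio and by their counts. A member had to be a RefSeq model record (an identifier starting with XM, a messenger RNA predicted from the genome), to have a mean of at least 50 and under 1000 tags over both libraries, and to have a ratio of miR-184 to water under 0.5 after each count was divided by its library total, with a 0 taken as 1 tag. Of the 5924 records counted, 5676 were XM records, 1737 of these lay in this window of counts, and 124 of the 1737 had a ratio under 0.5. The rule also leaves out 10 named hormone and muscle genes, none of which met it, so that 0 records were removed by name. No mRNA of the window carries a gene symbol other than a LOC number. A gene with another symbol could thus not meet the rule whatever its ratio.

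The larvae came from the honey bee strain Apis mellifera ligustica ZND No.1 and were reared in queen cells, so that all of them received royal jelly and were on the way to becoming queens. Each treated larva was given 5 µl of miR-184 solution at 100 ng/µl when it was 26 to 32 hours old, and each control larva was given 5 µl of DEPC-treated water at the same age, with the feeding repeated a day later in both groups. An experimental group held 20 to 25 queen cells, and the number of larvae pooled for each library is not given in the sources used here. The paper does not state how old the larvae were when their RNA was extracted. There was 1 library per condition, made from whole larvae, so that no value below has a replicate and the intervals given cover counting error only. An effect of miR-184 and any other difference between these 2 pools of larvae, or between the 2 preparations, cannot be told apart.

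MicroRNAs are short RNAs that guide Argonaute proteins to messenger RNAs, mostly through pairing of the seed near their 5′ end, and the bound messenger RNA is then translated less or degraded sooner. An mRNA whose level drops after a microRNA is added may thus be a direct target or may lie downstream of one. miR-184 is conserved between insects and vertebrates and is known in Drosophila for its part in the female germ line. In the honey bee a young female larva can still become a queen or a worker, and the food that it receives decides which of them. Tag profiling was used to count mRNAs. A short tag is sequenced beside an Nla III site near the poly(A) end of each cDNA, so that an mRNA is counted at a single place and not along its length. The tags were amplified by PCR before they were counted.

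The miR-184 library held 1353258 tags and the water library 1338190 tags, so that 1 tag stood for 0.739 and 0.747 TPM (tags scaled to a library of 1000000 tags). Among markers that the reference names, the larval storage protein HEX70b had 58273 tags in the miR-184 and 60187 tags in the water library (ratio 0.957), the highest count of both libraries. It is made in the fat body, the main store of a larva. Of 5 muscle markers, 4 had a ratio above 1, with ratios from 0.732 for the troponin TpnT to 1.57 for the troponin TpnCIIa, and PPO, the prophenoloxidase of blood cells, had 102 and 28 tags (ratio 3.60). Of the royal jelly protein genes, those looked up here, Mrjp1, Mrjp2 and Mrjp8, had at most 10 tags in either library. Whether a different make-up of tissues has a part in the ratios of the halved mRNAs was not tested. In whole larvae, fewer cells of a type and less RNA per cell cannot be told apart.

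The 124 halved mRNAs had 14 to 611 tags in the miR-184 library, with a median of 55, and 70 to 1409 tags in the water library, with a median of 142.5. No member was listed at 0 in either library. All of them together made up 2.18% of the water library with 29206 tags and 0.813% of the miR-184 library with 11002 tags, a ratio of 0.373 for the sum. The other XM mRNAs of the same window took 23.3% of the water and 24.7% of the miR-184 library, so that the window as a whole was level between the libraries, at 25.5% of each. The ratios of the members ran from 0.157 to 0.499 with a median of 0.387 and quartiles of 0.308 and 0.446, and the upper end is set by the rule. The median over all 1737 mRNAs of the window was 1.03. In the plot of ratios against counts the members form the lower edge of a cloud that thins out without a gap.

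**Figure D1:**
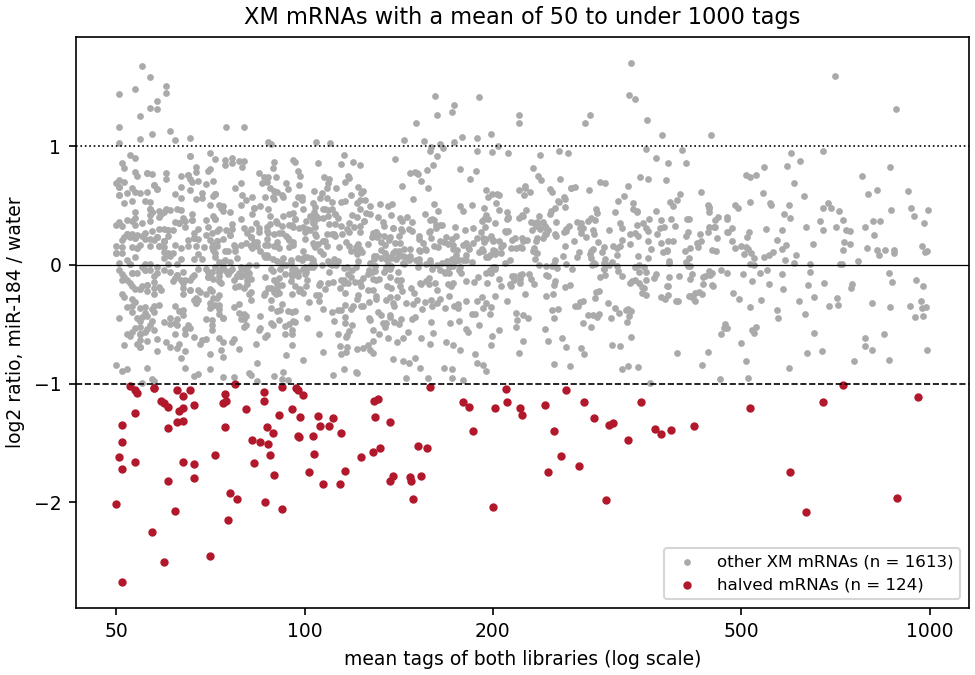
The log2 ratio of miR-184 to water (vertical axis) is plotted against the mean tags of both libraries (horizontal axis, log scale) for the 1737 XM mRNAs of the window, each point being 1 mRNA, with the 124 halved mRNAs in red. The dashed line marks a ratio of 0.5, the dotted line a ratio of 2, and no gap separates the red points from the grey ones.

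The window held more halved than doubled mRNAs. A ratio under 0.5 was found for 124 mRNAs (7.14%) and a ratio over 2 for 48 mRNAs (2.76%). Since the members were picked on this ratio, their share describes how often the rule is met and is no test of an effect. The 48 doubled mRNAs had ratios from 2.02 to 3.25 with a median of 2.29, while the halved mRNAs reached 6.36-fold lower with a median of 2.58-fold. A change of more than 4-fold was seen for 10 members, and no mRNA of the window was more than 4-fold higher.

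The 10 members with the lowest ratios were all more than 4-fold lower in larvae fed miR-184. The furthest apart was LOC410013, with 14 tags in the miR-184 and 88 tags in the water library, or 10.3 and 65.8 TPM. It was 6.36-fold lower, and the exact 95% interval of its ratio ran from 0.0826 to 0.278. LOC552781 had 18 and 101 tags (5.67-fold lower, interval of the ratio 0.100 to 0.293). XM_624174.2, a record that the reference does not pair with a gene, came next with 22 and 119 tags (5.47-fold lower, interval 0.110 to 0.290). The intervals of these lowest members overlap widely, so that their order is not settled by the counts.

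LOC551660 had 20 tags in the miR-184 and 94 tags in the water library (4.75-fold lower). LOC408573 had 28 and 123 tags (4.44-fold lower). LOC412445 had 24 and 100 tags (4.21-fold lower). These mRNAs lay at the thinly counted end of the window, where fewer than 30 tags carry the treated value. LOC725904 had 36 and 148 tags (4.16-fold lower), and XM_624270.2, which has the lowest mean of all members, had 20 and 80 tags (4.05-fold lower). LOC552183 was better counted, with 79 and 321 tags (4.11-fold lower, interval of the ratio 0.188 to 0.312).

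XM_623991.2 stood out within this group by its depth. It had 244 tags in the miR-184 library and 1023 tags in the water library, or 180 and 764 TPM. It was 4.24-fold lower with an interval of the ratio from 0.204 to 0.271, and it is the member of the 10 lowest ratios that was also among the 10 with the highest counts. The counts of the other lowest members were a fraction of these, and their intervals were wider.

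**Figure D2:**
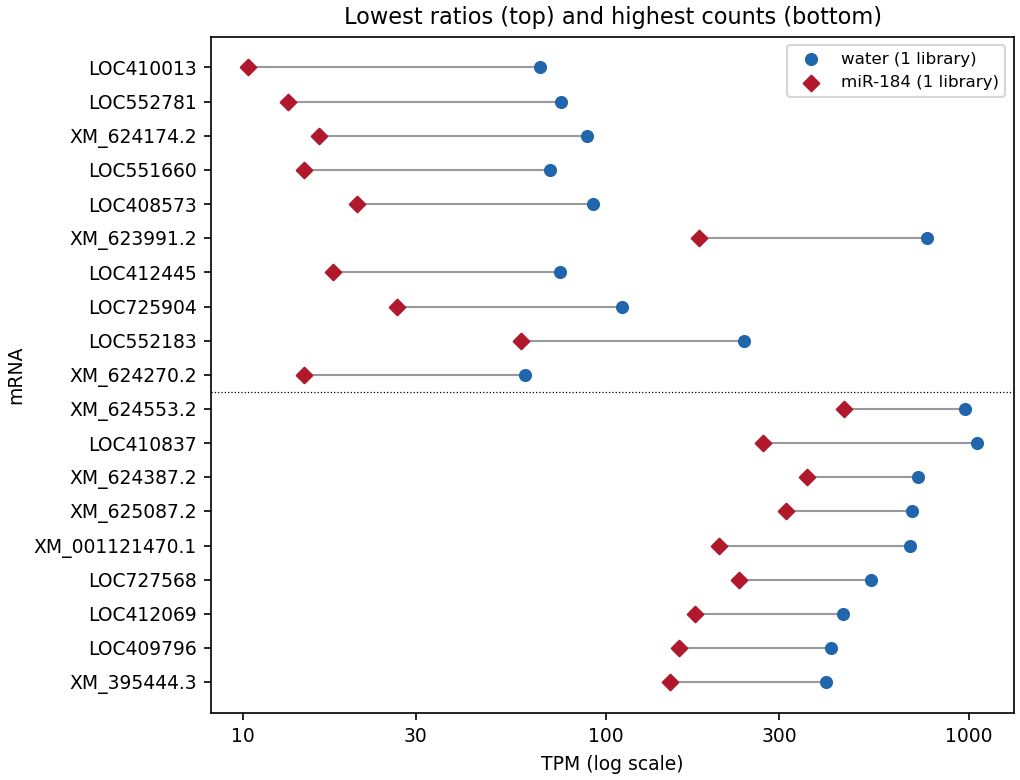
TPM (horizontal axis, log scale) in the water library (blue circles) and the miR-184 library (red diamonds) for the 10 halved mRNAs with the lowest ratio (above the dotted line) and for the others among the 10 with the highest counts (below it), each point being 1 library. The red diamond lies to the left of the blue circle in every row, with a water level of 65.8 TPM for LOC410013 and of 1053 TPM for LOC410837.

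The 10 most counted members held 30.7% of the tags of all members in either library. Their ratios are the best determined ones, because counting error shrinks with the number of tags. The most counted was XM_624553.2, with 611 tags in the miR-184 and 1304 tags in the water library (2.16-fold lower, interval of the ratio 0.420 to 0.510). LOC410837 had 366 and 1409 tags, the highest water count of all members, and was 3.89-fold lower (interval 0.228 to 0.288). XM_001121470.1 had 277 and 918 tags (3.35-fold lower, interval 0.260 to 0.342). LOC410837, XM_623991.2 and XM_001121470.1 were thus abundant in larvae fed water and stayed below 0.35 of that level over the whole of their intervals.

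The other well-counted members lay nearer to the threshold. LOC727568 had 315 and 718 tags (2.31-fold lower, interval of the ratio 0.379 to 0.496). LOC412069 had 238 and 602 tags (2.56-fold lower), LOC409796 had 215 and 557 tags (2.62-fold lower), and XM_395444.3 had 203 and 540 tags (2.69-fold lower). For these 4 mRNAs the interval ended below 0.5. XM_625087.2 had 423 and 929 tags (upper limit 0.506) and XM_624387.2 had 485 and 968 tags (upper limit 0.553), so that for both of them, and for XM_624553.2, a reduction of less than 2-fold lies within counting error.

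Most members lay nearer to the threshold than the 10 lowest ones. There were 32 members that were 3-fold to 4-fold lower, 29 that were 2.5-fold to 3-fold lower and 53 that were 2-fold to 2.5-fold lower. In the first of these groups LOC724188 had 124 and 484 tags (3.95-fold lower), LOC411862 had 61 and 237 tags (3.93-fold lower) and LOC551158 had 114 and 377 tags (3.34-fold lower). Each of these 3 mRNAs had more than 200 tags in the water library and at most 124 in the other. In the second, XM_001123053.1 had 176 and 483 tags (2.78-fold lower) and LOC551721 had 204 and 524 tags (2.60-fold lower). In the third, LOC412287 had 170 and 410 tags (2.44-fold lower) and LOC409026 had 216 and 474 tags (2.22-fold lower). Most members were not abundant, with a median of 98.25 tags on average over both libraries and quartiles of 66.5 and 183.75 tags. XM_001120970.1 and XM_001122997.1 had the same pair of counts, 38 and 77 tags, which happened for no other members.

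Whether the interval of a member ended below 0.5 depended on its count and on how near its ratio lay to the threshold. The upper limit of the exact interval lay below 0.5 for 57 of the 124 members, where 3.28% of all mRNAs of the window met this stricter limit. For the other 67 members the interval reached 0.5 or more, the highest upper limit being 0.752. The reverse limit, a lower bound above 2, was met by 9 mRNAs of the window (0.518%). In the plot of all members with their intervals, the lines shorten where counts are high and cross the threshold more and more often towards the right.

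**Figure D3:**
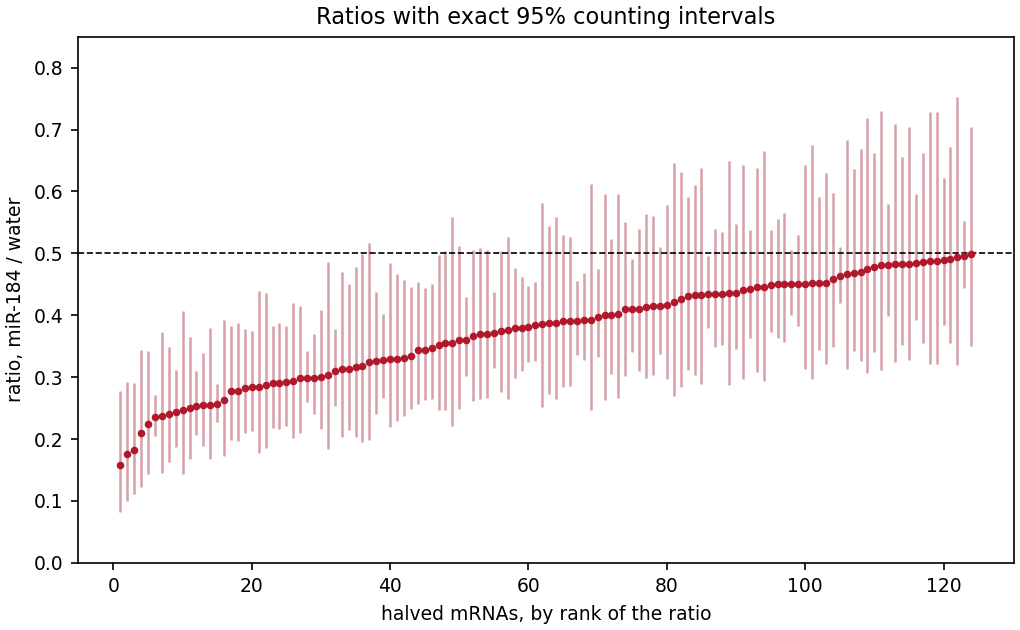
The ratio of miR-184 to water (vertical axis) of each of the 124 halved mRNAs, ordered by rank of the ratio (horizontal axis), is shown as a point with its exact 95% interval (vertical line), which covers counting error only. The dashed line marks 0.5, and 57 of the intervals end below it.

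At the threshold the members pass into other mRNAs without a step. The 3 members just inside it were XM_395569.3 with 35 and 70 tags (ratio 0.494), XM_624387.2 (ratio 0.495) and LOC413091 with 52 and 103 tags (ratio 0.499). The 3 mRNAs just outside it were XM_001123002.1 with 37 and 73 tags (ratio 0.501), LOC725146 with 241 and 474 tags (ratio 0.503) and XM_393413.3 with 39 and 76 tags (ratio 0.507). A shift by a few tags would move any of these across the line.

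The share of halved mRNAs was highest where counts were lowest. Between 50 and 100 tags on average, 64 of 678 XM mRNAs were halved (9.44%, 95% Wilson interval 7.46% to 11.9%) and 21 were doubled (3.10%). Between 100 and 200 tags the number was 30 of 520 (5.77%), between 200 and 500 tags 23 of 400 (5.75%), and between 500 and 1000 tags 7 of 139 (5.04%). From 50 tags upwards the intervals of the shares overlapped throughout, that between 100 and 200 tags running from 4.07% to 8.12%. Such overlap does not show that the shares are equal, and a difference between these bands was not tested. The Wilson intervals treat mRNAs as independent. Outside the window the share was 12.8% among XM mRNAs with 20 to 50 tags (132 of 1035). Its interval of 10.9% to 14.9% lay above that between 100 and 200 tags. The share was 6.67% among those with 1000 tags or more (13 of 195). The halved mRNAs outside the window are not members. In every one of these 6 bands more mRNAs were halved than doubled.

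**Figure D4:**
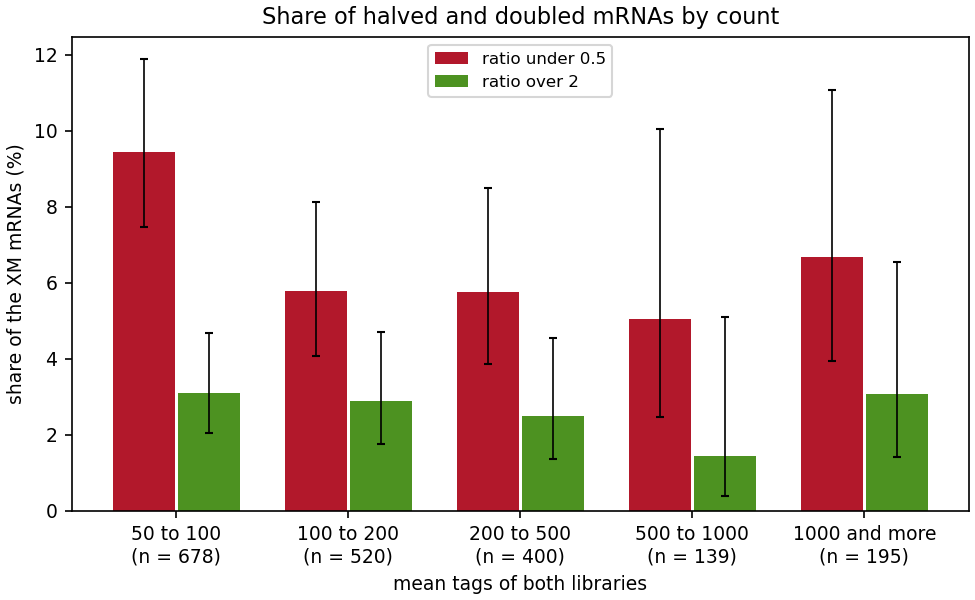
Share of the XM mRNAs (vertical axis, in percent) with a ratio under 0.5 (red bars) and over 2 (green bars) in bands of the mean tags of both libraries (horizontal axis), with 95% Wilson intervals as error bars and the number of mRNAs under each band. The red bar is above the green bar in each of the 5 bands shown, and it is highest at 9.44% between 50 and 100 tags.

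A greater depth narrowed the ratios of the members. The upper limit of the interval was typically 2.21 times the lower limit among members with 50 to 100 tags and 1.26 times among those with 500 to 1000 tags. The upper limit was below 0.5 for 22 of the 64 members in the first of these bands, for 17 of 30 between 100 and 200 tags, for 14 of 23 between 200 and 500 tags and for 4 of 7 above 500 tags. Among the 13 halved mRNAs with 1000 tags or more it was below 0.5 for all 13. The median ratio of the halved mRNAs ranged between the bands of the window from 0.345 between 100 and 200 tags to 0.434 above 500 tags.

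RefSeq, in its table for the bee assembly Amel_HAv3.1, pairs 69 of the 124 members (55.6%) with a gene that is annotated now, against 997 of the 1737 mRNAs of the window (57.4%). All of these genes carry only a LOC number as their symbol, in the members and in the whole window. The reference used here holds no product names, so that no function could be given to a member from it and none is given. The functional groups that had been planned from product names could not be formed for that reason, which says nothing on how well these genes are annotated elsewhere.

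The order of genes in the same table shows which members lie beside each other. With under 80% of the members placed, a check of this property over all of them is void, and only single cases are given. The closest pair was LOC550710, with 32 and 75 tags (ratio 0.422), and LOC412367, with 64 and 130 tags (ratio 0.487), with LOC551811 between them. LOC551811 had 24 and 22 tags (ratio 1.08), too few to place its level closely. LOC411893 and LOC410007 (ratios 0.401 and 0.278) lay apart by 3 genes, among them Tbh, which codes for the tyramine beta-hydroxylase of octopamine synthesis. Tbh overlaps LOC410007, and no counted record was paired with it, so that it has no value here. Between LOC551158 and LOC551358 (ratios 0.299 and 0.469) there were 4 genes, of which LOC412262 had 25 and 35 tags (ratio 0.706). These are again few tags. Between LOC412020 and LOC552331 (ratios 0.414 and 0.393) there were 5 genes, of which LOC552314 had 40 and 23 tags (ratio 1.72).

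Several members share their stretch of the genome with another gene, and the strand used in counting is not given in the sources used here, so that tags of overlapping genes may not be fully told apart. Of the 69 members placed, 11 overlap a counted gene. Among these 11 partners, 6 had a ratio above 1 and 3, all thinly counted, had a ratio under 0.5. Of the 1737 mRNAs of the window, 929 had a ratio above 1. A ratio under 0.5 was found for 12.8% of the XM mRNAs with 20 to 50 tags. Whether the partners differ from other mRNAs was not tested. The pairs described here are single cases. The first 3 are those whose partner had at least 50 tags on average, and in each of them the ratio of the partner was above 1. LOC552183, 4.11-fold lower with 79 and 321 tags, overlaps LOC411697, which had 276 and 174 tags (ratio 1.57, interval 1.29 to 1.91). LOC551505, with 45 and 125 tags (ratio 0.356), overlaps LOC413852, which had 143 and 119 tags (ratio 1.19, interval 0.925 to 1.53). LOC412082, with 37 and 91 tags (ratio 0.402), overlaps LOC409341, which had 391 and 358 tags (ratio 1.08, interval 0.933 to 1.25). In these 3 pairs the ratio of the member was below 0.5 and that of its partner above 1, with an interval that lay wholly above 1 for LOC411697 only. Among thinly counted partners, LOC552314, which overlaps LOC552331 (ratio 0.393), had 40 and 23 tags (ratio 1.72, interval 1.01 to 3.01).

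In other pairs both genes had a ratio under 0.5, with an interval that reached above 1 for the partner LOC725478. LOC551695, with 135 and 307 tags (ratio 0.435), overlaps LOC413840, and LOC409074, with 81 and 177 tags (ratio 0.453), overlaps LOC411473. Each of these partners had 15 and 48 tags (ratio 0.309, interval 0.161 to 0.561), too few to lie in the window. LOC412445 (ratio 0.237) overlaps LOC725478, which had 8 and 16 tags (ratio 0.494, interval 0.183 to 1.22).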

How the data were processed

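The authors sequenced Nla III tags from 1 library of larvae fed miR-184 and 1 of larvae fed water, mapped them to bee transcripts and genome, and added up the unique hits per gene. Aligner, build and strand are not given in the sources used here. The deposited values are tag counts per RefSeq record. The file heads the column of the miR-184 library RNAi, which is matched by that sample's label. The labels call the values TPM, but they are whole numbers that sum to 1353258 and 1338190. The smallest count above 0 was 2, so that a listed 0 may stand for 1 tag.

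Counts were divided by the library total, and the ratio is miR-184 over water. Clopper-Pearson intervals (exact, 95%) were taken for the part of a record's tags that came from the miR-184 library and turned into ratios. They cover counting error only and treat each tag as independent. Tags were amplified by PCR without molecular identifiers, so that the intervals may be too narrow even for counting error. With 1 library per condition and members picked on the ratio, no test was applied to them, neither the Audic and Claverie test of the study nor the quasi-likelihood test of edgeR. The intervals were tried on simulated independent counts, which is the kind of counting that they assume. That check held no PCR copies and no differences between pools, so that it cannot bear on either.

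The rule for members and the lists were chosen with earlier results of these data known. Named members were the 10 lowest ratios, the 10 highest counts and the 3 next to the threshold on each side. The others named, and the marker genes, were chosen after their values were seen. Gene names and order were looked up by record, without its version, in the Amel_HAv3.1 table of RefSeq, and no coordinates are given. Protein lengths, seed matches and the sequences of miR-184 and of the members were not analysed here. Python 3.11.15, numpy 2.4.6, pandas 2.3.3, scipy 1.17.1, matplotlib 3.10.9, R 4.3.3 and edgeR 4.0.16 (for TMM factors) were used.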

Additional observations from a re-analysis of the deposited data

How the results depend on the processing

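No paired analysis was possible because the conditions have 1 library each, so that none could be left out either. The 124 halved mRNAs were 124 under TMM scaling, 126 when centred on the median and 125 with totals that leave out the 10 most abundant mRNAs, and all 124 were kept in each. These scalings changed every ratio by less than 1% and are a weak check. With a 0 taken as 3 tags the number was 124 too. No mRNA of the window was listed at 0, so that this setting could not change it. The thresholds move the number by construction: it was 256 from a mean of 20 tags, 60 from a mean of 100 tags, 1088 without a filter on counts, 71 with a ratio under 0.4, 188 with a ratio under 0.6 and 57 with the upper limit of the interval under 0.5. Of 2 settings chosen after seeing the data, a window on the water count alone gave 168 mRNAs, 121 of them members, and a window on the miR-184 count alone gave 79, 70 of them members. For the 21 members named by rule, the 84 values under other scalings or with a pseudocount of 5 tags lay within the counting interval. The pseudocount raised a ratio by up to 1.28 times and took 2 members next to the threshold across it, XM_395569.3 from 0.494 to 0.527 and LOC413091 from 0.499 to 0.522. The functional groups and seed matches were not run.

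For 67 of the 124 members, XM_624553.2 with the highest count among them, a reduction of less than 2-fold lies within counting error. Both few tags and a ratio near the threshold give such an interval. Members picked at the low end of a noisy ratio tend to have overstated reductions, and no second pair of libraries was at hand to measure them again.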

Other observations

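The ratios of the window were lopsided in a way that its middle did not show. Of the 1737 mRNAs, 929 had a ratio above 1 and 808 below 1, with a median log2 ratio of 0.04, yet 124 were below 0.5 and 48 above 2. The 25th and 75th percentiles of the log2 ratio were -0.33 and 0.34, the 5th and 95th were -1.20 and 0.85, and the 1st and 99th were -1.84 and 1.28. The longer lower tail thus lies outside the middle range, where 129 mRNAs were 1.5-fold to 2-fold lower and 169 were 1.5-fold to 2-fold higher. With 1 library per condition, what the tail comes from was not tested.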
